A study of Rattus norvegicus with 10 samples.

Results

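Clustered muscle-exclusive regions are stretches of open chromatin that were found in every gastrocnemius muscle library and in no adipose library, and that lay close to others of their kind on the chromosome. They were chosen from the peak lists in 3 steps. Peaks of all 10 libraries on chromosomes 1 to 20 were merged where they overlapped by at least 1 bp, which gave 781477 regions. Regions with a peak in all 5 muscle libraries and in none of the 5 adipose libraries were called muscle-exclusive, and there were 18757 of them, 5.68% of the 330041 regions called in 2 or more libraries. Each was assigned by its midpoint to a fixed window of 100 kb, and the 4919 that lay in a window with 5 or more were the clustered ones, 26.2% of the muscle-exclusive regions. The other 13838 are called dispersed below. The presence of a peak in muscle, its absence in adipose and the crowding in a window are what the choice used, so none of these is a finding.

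The series profiled open chromatin by ATAC-seq, in which a transposase inserts adapters into accessible DNA of isolated nuclei, in frozen white fat of the abdomen and in gastrocnemius, a calf muscle, with 5 libraries of each. All libraries are labelled as untreated male Fischer 344 rats of 8 months, and neither tissue carries a transgene or a treatment. Samples came from single animals or pools of powdered tissue from several males, and the labels do not tell these apart. Libraries of both tissues are titled Rat1 to Rat5, the replicate numbers used here. The titles do not say whether equal numbers mean the same animal. Tests of muscle against adipose below are unpaired, and pairing by number, called the replicate block, is given in the last section. The p-values below therefore cover the spread among the libraries as made, which may be technical in part. The study compares chromatin accessibility between the tissues.

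Adipose replicates 2, 3 and 4 went against the label male. They had 0, 0 and 1 peaks on chromosome Y and between 2.78% and 3.47% of their peaks on chromosome X, whereas adipose replicates 1 and 5 had 31 and 45 peaks on Y and the muscle libraries 16 to 24. The comparisons of muscle with adipose below are therefore also given with adipose limited to replicates 1 and 5. The adipose libraries listed 239975 to 256339 peaks on chromosomes 1 to 20 and the muscle libraries 161606 to 186204.

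Skeletal muscle fibres are large cells with many nuclei, and much of their transcription is spent on a limited set of contractile, calcium-handling and metabolic genes. In muscle and in other tissues, genes that mark a cell type are often accompanied by groups of neighbouring enhancers, and transcribed gene bodies can be accessible over long stretches. Muscle tissue also holds endothelial, immune, nerve and stem cells. In bulk tissue, fewer cells of a type and less accessible DNA per cell cannot be told apart. Regions are given by their position on the build of these files, rn6. No annotation of that build was used, so no gene is named, tissue marker genes were not checked, and whether a region is exonic, intronic or intergenic is not given.

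A peak's deposited fold enrichment and p-value hold more than a rank. The peak caller MACS2 compares the pileup of reads at a summit with a background, which is the larger of the average over the genome and an average over the neighbourhood. Each row's fold and p were solved for a whole-number summit pileup and a local background, and all 2636339 rows on chromosomes 1 to 20 gave a solution within 0.01 of the listed −log10 p (for values above 1000, in proportion). The lowest local background of each library, taken as its genome background, was 3.01 to 5.23 reads in adipose and 3.48 to 5.06 reads in muscle, and it scales with depth. Pileups and local backgrounds are given below as multiples of it. Read totals per library are not used here.

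The 4919 clustered regions lay in 798 windows, 3.09% of the 25798 windows that held any region, and covered 3.2 Mb of the 11.9 Mb of muscle-exclusive sequence. The number of windows fell steadily with the number of regions in them. Of the clustered windows 374 held 5 regions, 214 held 6, 89 held 7 and 54 held 8, and a single window held the maximum of 18. The members of a window were spread over most of it. Their span from first to last had a median of 67250 bp, the gap between neighbours had a median of 8235 bp (quartiles 3313 and 16414 bp, 4121 gaps), and together they covered a median of 3728 bp of the window. Only 488 gaps (11.8%) were shorter than 1 kb. With regions less than 1 kb apart counted as 1, a setting chosen after seeing the data, 3827 regions in 642 windows were left, so most but not all windows passed the limit without counting such close neighbours separately. A clustered region had a median merged length of 583 bp and a dispersed one of 576 bp.

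**Figure D1:**
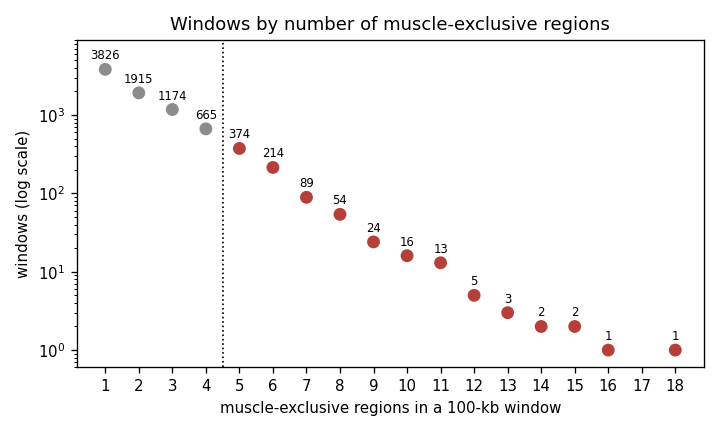
Number of 100-kb windows (log scale) against the number of muscle-exclusive regions in a window. Each point is a count of windows with its number printed above, and the dotted line marks the limit of 5. Windows with 5 or more (red) run from 374 windows with 5 regions to 1 window with 18.

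The limit of 5 fell within a gradual series and not at a step. Regions in the 665 windows with 4 muscle-exclusive regions, just outside it, had a median summit pileup of 14.4 ± 1.73 times the genome background, and those in the 374 windows with 5, just inside it, had 15.8 ± 1.64 (SD, n = 5 muscle libraries). Local background was 2.60 ± 0.204 and 2.95 ± 0.259 times the genome background, and peak width 401 ± 38.1 and 404 ± 33.1 bp. In pileup and width the difference between outside and inside was smaller than the spread between libraries. Both were measured in the same libraries, so that spread is not the error of the difference, which was not tested.

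The fullest window was on chromosome 10 at 53700001 to 53800000, with 18 members. The muscle libraries listed 37, 42, 36, 37 and 38 peaks in it and the adipose libraries 2, 0, 1, 0 and 0. The neighbouring window at 53600001 to 53700000 held 14 members, where muscle libraries listed 31, 28, 28, 26 and 29 peaks and adipose libraries 1, 7, 6, 4 and 1. Neither window held a region open in all 10 libraries.

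Members of these neighbouring windows differed widely in height. In the fuller one the summit pileup ran from 9.42 to 84.1 times the genome background with a median of 34.3, and the highest was at 53777446 to 53778579, with 275, 424, 455, 344 and 370 reads in muscle replicates 1 to 5. In the other, a group of regions between 53652983 and 53672316 included the highest of the window, at 53662606 to 53663685, where 606, 856, 684, 519 and 1094 reads gave 166 times the genome background. The background around that summit was itself 29.1 times the genome background, so its fold enrichment was only 5.66 on average. High members therefore did not have to be high in the deposited fold.

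The longest stretches of adjacent clustered windows had 5, and that on chromosome 3 (63500001 to 64000000) held 54 members in the order 6, 16, 12, 15 and 5. Over the run a muscle library listed 152 to 177 peaks (median 175) and an adipose library 24 to 47 (median 29). In its second window, at 63600001 to 63700000, the muscle libraries had 51, 49, 47, 36 and 44 peaks and the adipose libraries 5, 0, 3, 5 and 0. Of the 5 longest runs it held the most members.

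The windows of this run differed in kind. The 16 members at 63600001 to 63700000 were low and even, with summit pileups of 12.5 to 24.1 times the genome background and fold enrichments of 1.58 to 3.39. Between 63800001 and 63900000 the 15 members reached from 14.8 to 94.9 times the genome background. The highest of them, at 63854233 to 63855162, had 377, 477, 410, 246 and 659 reads and a fold enrichment of 19.5 ± 3.14 (SD, n = 5), with a local background of only 4.62 ± 0.505. At 63837654 to 63838677 a summit almost as high, at 87.2 times the genome background, stood on a local background of 18.4 and had a fold enrichment of 4.66. The even window depended on weak peaks: it held 16 muscle-exclusive regions from all peaks, 7 from peaks above the −log10 p floor common to all lists (4.27) and 6 from those whose −log10 q was 5 or more.

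Window 7 in order of members, on chromosome 10 at 45400001 to 45500000, held 13. Muscle libraries had 32, 39, 38, 30 and 42 peaks there and adipose libraries 0, 3, 4, 3 and 3. All but 2 of its members lay between 14.8 and 32.2 times the genome background, and the neighbours at 45481706 to 45482398 and 45482520 to 45483936 reached 53.2 and 137. The window held 7 muscle-exclusive regions when a −log10 q of 5 or more was required.

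In the remaining 5 of the 10 fullest windows adipose libraries listed 4.8 to 12.2 peaks on average, and each held regions open in all 10 libraries. On chromosome 3 at 57900001 to 58000000 there were 15 members, which were low, with a median pileup of 6.43 times the genome background, and the window held 4 muscle-exclusive regions at a −log10 q of at least 5. On chromosome 1 at 277100001 to 277200000 there were 14 members, reaching 130 times the genome background. There the muscle libraries listed 29.2 ± 1.1 peaks and the adipose libraries 10 ± 1.41 (SD, n = 5 each).

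On chromosome 12, the window from 23200001 to 23300000 held 13 members with a median pileup of 15.2 times the genome background. The 13 members on chromosome 18 between 29200001 and 29300000 had a median of 37.2. On chromosome 1, the window that starts at 53300001 and ends at 53400000 held 12, with a median of 14.7. The windows on chromosomes 12 and 18 held 4 and 6 regions open in all 10 libraries, beside 11.2 ± 2.39 and 12.2 ± 1.79 adipose peaks. In each of the 10 windows every muscle library listed more peaks than every adipose library, which the choice of the windows makes likely and which was not tested.

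**Figure D2:**
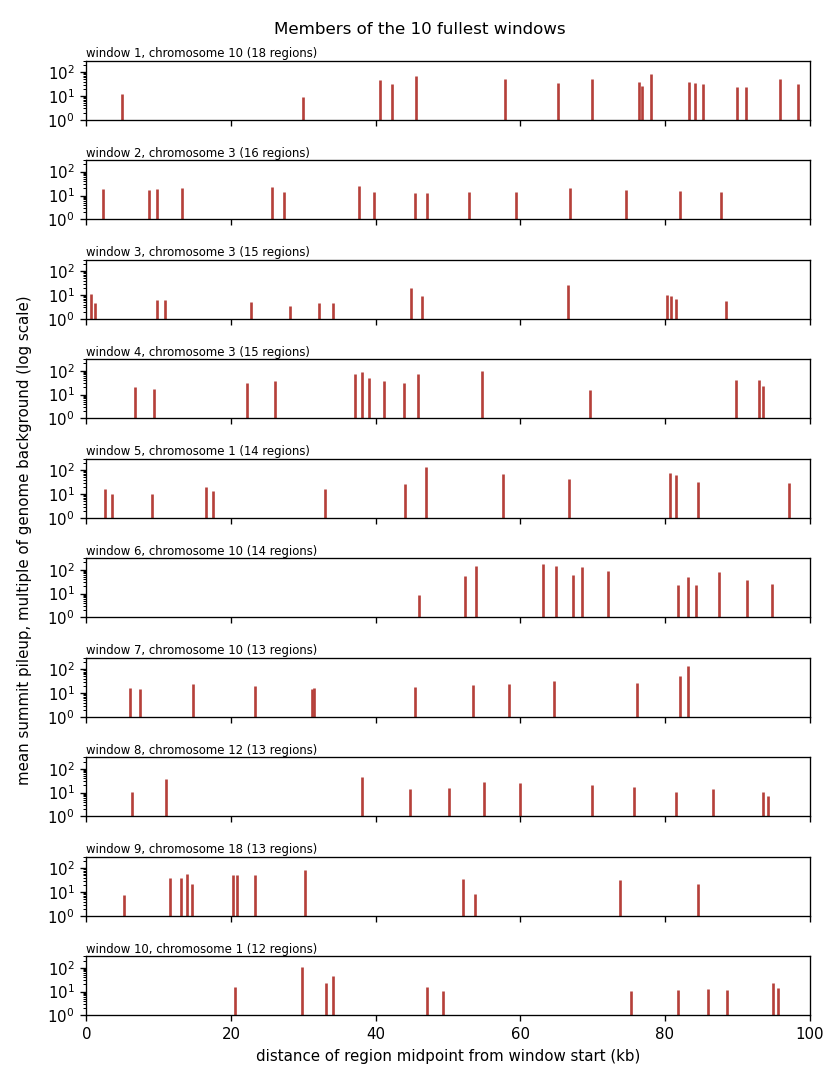
Position of each clustered region (distance of its midpoint from the window start, kb) and its mean summit pileup over 5 muscle libraries (multiple of the genome background, log scale) in the 10 windows with the most members. Members are spread along the windows; the highest, at 166 times the genome background, is in window 6 on chromosome 10, and window 2 on chromosome 3 stays between 12.5 and 24.1.

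**Figure D3:**
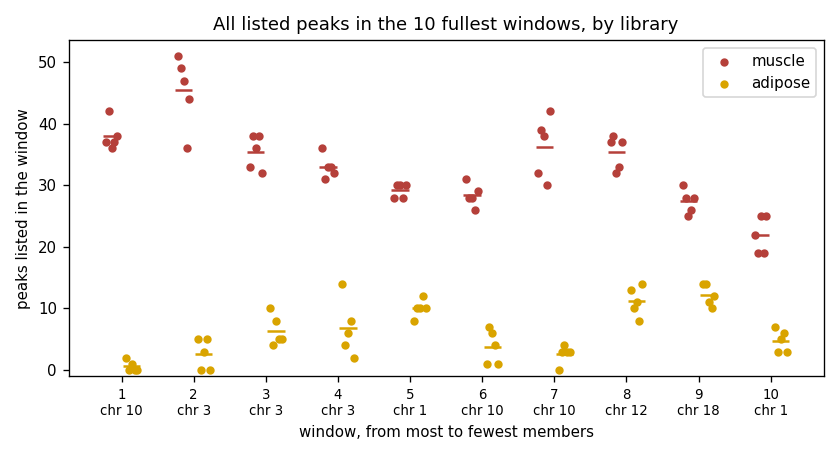
All peaks listed in the 10 fullest windows, 1 point per library (muscle red, adipose yellow) and a bar at the mean of 5. Muscle libraries lie between 19 and 51 peaks and adipose libraries between 0 and 14, and within a window the tissues do not overlap.

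Most clustered windows stood alone. Of the 798, 549 had no clustered neighbour, 178 were in 89 pairs and 71 were in the 21 longer runs, of which 16 held 3 windows, 2 held 4 and 3 held 5. Besides that on chromosome 3, runs of 5 spanned 18400001 to 18900000 of chromosome 17 with 42 members and 102000001 to 102500000 of chromosome 1 with 31 members. The runs of 4 spanned 75600001 to 76000000 of chromosome 10 with 32 members and 73000001 to 73400000 of chromosome 13 with 22 members. On chromosome 17 a muscle library listed 85 to 111 peaks over the run and an adipose library 12 to 31. Crowding did not end at the window's edge: the 1252 windows next to a clustered one, not clustered themselves, held 1.58 muscle-exclusive regions on average and 27.3% held none. In the 23748 windows farther off the mean was 0.499 and 71.9% held none. A fixed grid cuts through groups of regions, and with windows shifted by 50 kb 2985 of the 4919 regions (60.7%) were still in a window with 5 or more, among 4740 clustered under that grid.

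Every chromosome from 1 to 20 held clustered regions, from 110 on chromosome 16 to 543 on chromosome 1. The clustered share of a chromosome's muscle-exclusive regions was 26.2% overall and ranged from 21.6% on chromosomes 4 and 16 to 31.5% on chromosome 10. Clustered windows made up 5.95% of the windows of chromosome 10 and 5.06% of those of chromosome 12, against 2.12% on chromosome 16 and 2.15% on chromosome 2. These shares are a description of the map and were not tested.

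The 10 members that ranked highest in all muscle libraries were mostly in windows with 5 to 7 members. So were most members: windows with 5, 6 and 7 regions held 1870, 1284 and 623 of the 4919. First of the 10 was a region of 654 bp on chromosome 19 at 34631610 to 34632263, in a window of 7. It had fold enrichments of 19.6, 20.9, 23.3, 24.5 and 24.9 in muscle replicates 1 to 5. It stayed above the 98.6th percentile of each list. Next came chromosome 9 at 29378166 to 29378950, in a window of 5, with 23.8, 18.1, 22.3, 19.6 and 23.2. These values are the authors' own and carry each library's scale, so libraries are set side by side and not tested.

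Then followed a region on chromosome 10 at 52215633 to 52216492, whose mean fold enrichment was 20.5 ± 1.65, and one on chromosome 8 at 91678288 to 91679191, whose mean was 19.8 ± 2.09 (SD, n = 5). The region on chromosome 8 had the lowest pileup of the 10, with 134, 186, 148, 102 and 176 reads, and stood on a local background of only 1.47 ± 0.27 times the genome background. The last of the 10, on chromosome 1 at 190756201 to 190757141, had a like fold enrichment of 19.3 ± 1.6 with many more reads, 689, 865, 853, 567 and 1205. That is 184 ± 31.2 times the genome background, the highest pileup of any clustered region, over a local background of 9.31 ± 1.26. Equal fold enrichment thus stood for very different numbers of reads.

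Between these in rank came 47426397 to 47427594 of chromosome 9, 6847472 to 6848191 of chromosome 18, 36898587 to 36899602 of chromosome 10, 214908882 to 214909865 of chromosome 1 and 238844825 to 238845830 of chromosome 2. Their mean fold enrichments lay between 19 and 21.7. In each of these the highest value was in muscle replicate 5, whose median fold enrichment over all clustered regions was 5.36 against 4 to 4.23 in the other muscle libraries. None of the 10 lay in one of the 10 fullest windows. With 12 to 18 members each, those windows held few of the 4919 members, so this count says little.

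Over all members the mean fold enrichment had a median of 4.35 and ran from 1.33 to 22.6, and 5% of members exceeded 12.1. The summit pileup ranged more widely, from 2.66 to 184 times the genome background with quartiles of 9.83 and 34.6. Within a window the highest member had a pileup 6.13 times that of the lowest and 2.53 times that of the median member (medians over 798 windows). The order of the members was much the same from library to library. Across the 4919 regions, which are not independent replicates, Spearman's rho between pairs of muscle libraries was 0.80 to 0.90 for fold enrichment and 0.87 to 0.96 for pileup.

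Most members were strong in every muscle library. A −log10 q of at least 5, called strong here, was reached in all 5 muscle libraries by 3435 members (69.8%) and in none by 88 (1.79%). Among dispersed regions the share strong in all 5 was 64.4%, so this was not particular to the clustered ones. At least 1 member strong in all 5 was present in 792 of the 798 windows, and 323 windows held 5 or more of them. Absence from an adipose list does not mean an absence of reads. The weakest listed adipose peaks had 10 to 16 reads, 3.06 to 3.42 times the genome background, so a summit below that could not be listed. Of the members, 14 had a mean muscle pileup at or below 3.42 times the background, and 233 (4.74%) were at or below it in at least 1 muscle library. On a higher local background a summit needs more reads to be listed, so more members than these may lie below what adipose could list. The lists also end at different p-values, −log10 p of 3.26 to 4.27 in adipose and 2.0 in muscle. With the floor of 4.27 in every library 3604 members (73.3%) were still clustered, and with a −log10 q of at least 5 in every library 2764 (56.2%).

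Clustered and dispersed regions share the rule on tissue and differ in crowding, so their heights could be compared within each muscle library. Clustered regions had more reads at the summit and stood on a higher local background, with wider peaks but a lower fold enrichment. The median summit pileup was 15.2, 17.4, 17.3, 17.5 and 20.5 times the genome background in muscle replicates 1 to 5 for clustered regions and 10.2, 11.2, 11.2, 11.2 and 13.4 for dispersed ones, a ratio of 1.53 (1.49 to 1.56). All 5 libraries gave the same direction, for which the two-sided exact sign-flip permutation p is 0.0625, the smallest that 5 libraries allow. With 5 libraries this exact test cannot pass 0.05, whatever the size of a difference. Both classes also had to be listed in all 5 muscle libraries. A summit on a higher local background needs more reads to be listed, and the part of this requirement in the pileup ratio was not tested.

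Local background differed more than pileup did. Its median was 3.53 ± 0.327 times the genome background at clustered and 1.84 ± 0.101 at dispersed regions (SD, n = 5), a ratio of 1.91, and 4.44 ± 1.69% of clustered against 20.3 ± 2.23% of dispersed regions had no local background above that of the genome. The caller's neighbourhood average takes in the reads of any peak nearby, and the part of neighbouring members in this difference was not tested. The deposited fold enrichment divides pileup by local background. Its median percentile within the library's list was lower for clustered regions, 62.1 ± 1.91 against 67.6 ± 1.4, by 5.45 points (exact sign-flip permutation p = 0.0625).

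The order of the classes depended on the statistic used to rank peaks. Ranked by −log10 q in place of fold enrichment, clustered regions stood higher, at a median percentile of 71.3 ± 1.07 against 68.3 ± 1.35, a difference of 3.02 points that was positive in all 5 muscle libraries (exact sign-flip permutation p = 0.0625). When peaks were required to be strong, the fold difference was -9.64 points. Strong peaks made up 86.6 ± 4.09% of clustered and 84.5 ± 4.72% of dispersed regions, a small difference of 2.17 points, which was 1.31 at the common −log10 p floor and 4.29 at a −log10 q of at least 10. Median peak width was 411 ± 32.1 bp and 393 ± 35.3 bp, a difference of 17.9 bp that was 9.3 bp among strong peaks. Both differences are smaller than the spread between libraries, although each library gave the same sign (exact sign-flip permutation p = 0.0625 each). That spread is not the error of a difference taken within libraries. The within-library differences had an SD of 0.969 points for the strong share and 4.006 bp for the width.

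**Figure D4:**
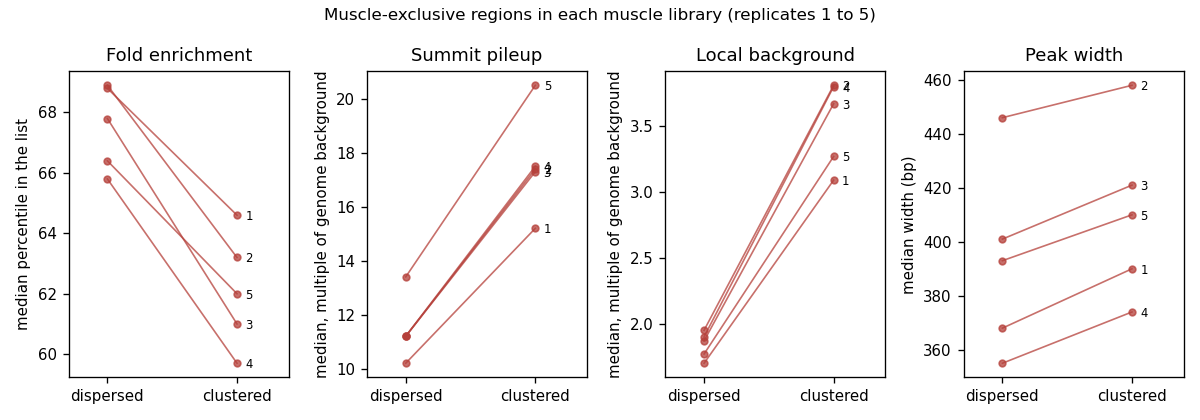
Median of 4 measures over dispersed and clustered muscle-exclusive regions, with 1 line per muscle library (numbers 1 to 5). Axes do not start at 0. In each library the clustered regions have a lower fold percentile, a higher summit pileup and local background (multiples of the genome background) and a greater width.

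The median distance to the nearest adipose peak was slightly greater for clustered than for dispersed regions in each of the 5 adipose libraries. It was 3158, 3101, 2807, 3698 and 3382 bp in adipose replicates 1 to 5 for clustered and 2993, 3047, 2730, 3626 and 3168 bp for dispersed regions. Since both classes were chosen for having no adipose peak, this was not tested. Clustered windows were not empty in adipose. An adipose library listed a median of 10.8 ± 1.1 peaks per clustered window (11 in replicates 1 and 5 each) and a muscle library 21.6 ± 0.548. Members accounted for 30.5 ± 0.822% of a muscle library's peaks in these windows. No clustered window lacked adipose peaks in all 5 libraries, and 170 held an adipose-exclusive region, open in all 5 adipose and no muscle library. These windows held 3.68 ± 0.372% of an adipose library's peaks and 10.1 ± 0.564% of a muscle library's.

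What lay beside the members in their windows was then described, since those peaks had not been used to choose them. Of the 20917 regions in clustered windows called in 2 or more libraries, 23.5% were the members, 18.9% were found only in muscle but in fewer than 5 libraries, 9.85% only in adipose, and 12.1% in all 10. Among the 309124 such regions elsewhere the share found only in muscle in fewer than 5 libraries was 9.51%, that found only in adipose 38.3%, and that found in all 10 was 12.3%. Regions found in both tissues but not in all 10 libraries made up 35.7% in clustered windows and 35.3% elsewhere. These shares depend on a total that the choice of windows fills with members. Counted per window, regions open in all 10 libraries numbered 3.16 on average in clustered windows and 1.53 in the 25000 other windows. The higher number was not particular to clustered windows. The 665 windows with 4 muscle-exclusive regions held 2222 regions open in all 10, and the 43 windows with 10 or more held 97. With adipose limited to replicates 1 and 5 and the windows rebuilt, the share found only in adipose was 3.91% in clustered windows and 15.4% elsewhere. The share found only in muscle in fewer than 5 libraries was then 25.5% and 19.4%, a narrower contrast. The share found in all libraries of this setting was lower in clustered windows, 17.5% against 21.3%.

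Peaks outside muscle-exclusive regions were also more numerous in muscle. Per 100000 peaks of the library, clustered windows held 6465, 7632, 7106, 6963 and 7047 of them in muscle replicates 1 to 5 and 3433, 3865, 4194, 3243 and 3645 in adipose, a ratio of 1.92 with no overlap (difference 3366, two-sided exact permutation p = 0.00794, the smallest that 5 against 5 allows). The windows themselves had been chosen for muscle peaks and were not chosen again in the permutations. Neither this difference nor its p-value is therefore independent of the choice of windows. The peaks counted include those of 10602 regions in clustered windows found only in muscle, in 1 to 4 libraries. The difference was 1336 among strong peaks (exact permutation p = 0.00794). It was 5480 with adipose limited to replicates 1 and 5 (exact permutation p = 0.0476), a setting in which more windows are clustered. By single windows, every muscle library exceeded every adipose library in these peaks in 196 of the 798 (24.6%), against 3.05% of all windows. The opposite held in 2 (0.251%), against 37.2% of all windows. In the 7580 windows with 1 to 4 muscle-exclusive regions, muscle was higher in 6.65% and adipose in 8.71%. The low share with adipose higher was thus in part already seen below the limit of 5. With adipose limited to replicates 1 and 5, muscle was higher in 388 of 1715 clustered windows (22.6%), against 4.17% of all windows, and adipose in 79 (4.61%), against 50% of all windows.

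Regions open in all 10 libraries, each with a peak in every list, were compared by height. The windows were still chosen from the same lists. There were 40670 such regions, 2522 inside clustered windows, with a median of 3 per window and none in 98 windows. In muscle they had far more reads inside clustered windows than elsewhere. The median summit pileup was 29.2, 30.0, 32.4, 32.7 and 42.4 times the genome background inside and 18.3, 16.4, 19.4, 19.5 and 25.1 elsewhere, a ratio of 1.69. In adipose the same regions were slightly lower inside, at 8.98, 11.1, 12.8, 8.98 and 12.4 against 9.65, 11.7, 13.3, 9.75 and 13.7, a ratio of 0.936. A region had to be listed in every library, and a summit on a higher local background needs more reads to be listed. Local background in muscle was 4.91 ± 0.389 times the genome background inside and 2.34 ± 0.108 elsewhere. In adipose it was 1.96 ± 0.166 and 1.9 ± 0.157. The part of this listing limit in the pileups was not tested.

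The log2 ratio of inside to elsewhere was 0.76 ± 0.0711 in muscle and -0.10 ± 0.0353 in adipose, and the tissues did not overlap (difference 0.85, n = 5 each, two-sided exact permutation p = 0.00794). The difference was 0.51 among strong peaks (exact permutation p = 0.00794) and 0.88 with adipose replicates 1 and 5 alone (exact permutation p = 0.0476, the smallest that 2 against 5 allows). In muscle, the summits of shared regions thus stood higher inside these windows than elsewhere, and in adipose slightly lower. The windows were chosen by tissue from the same lists and were not chosen again in the permutations. The pileup difference and its p-values are therefore not independent of that choice, and the difference is a description. Local background had log2 ratios of 1.07 ± 0.0924 in muscle and 0.04 ± 0.0135 in adipose, a difference of 1.03, or 1.05 with adipose replicates 1 and 5 alone. This value is a description: the neighbourhood average can take in reads of members nearby, which the choice put in the muscle lists only. The part of such reads in it was not tested.

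Fold enrichment did not show this. The median fold percentile of regions open in all libraries was lower inside clustered windows than elsewhere by 4.52 ± 0.967 points in muscle and by 1.93 ± 0.288 points in adipose (difference -2.59, n = 5 each, exact permutation p = 0.00794). With adipose limited to replicates 1 and 5 the difference was -0.34 (exact permutation p = 0.905), and ranked by −log10 q it turned to 5.36 (exact permutation p = 0.00794). It was -6.9 in windows of 50 kb, -0.94 in windows of 200 kb and -6.31 among strong peaks (exact permutation p = 0.00794 each). These p-values have the same limit, since the windows were chosen by tissue.

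The rise in muscle was graded and began well below the limit of 5. In windows with no muscle-exclusive region, regions open in all libraries had a median pileup of 14.4 ± 2.43 times the genome background in muscle and 11.6 ± 1.9 in adipose. With 1 such region the muscle value was 20.9 ± 3.52, with 4 it was 31.5 ± 5.19, with 5 it was 32.4 ± 4.98 and with 10 or more it was 44.4 ± 7.25 (97 regions in 33 windows). Adipose stayed between 9.46 ± 1.82, with 10 or more, and 12 ± 2.02, with 3 (SD, n = 5 libraries each). With adipose limited to replicates 1 and 5, muscle went from 11.9 ± 1.85 to 34.3 ± 5.64, replicate 1 from 8.98 to 7.65 and replicate 5 from 12.4 to 10.6. Muscle-exclusive regions themselves went from 9.09 ± 1.12 where they were alone in a window to 21.7 ± 1.8 where there were 10 or more, and their local background from 1.27 ± 0.0252 to 5.84 ± 0.568. Their median fold percentile fell over the same steps from 69 ± 1.37 to 53.1 ± 1.79. The pattern is thus not particular to windows with 5 or more. In muscle the local background of regions open in all libraries also rose, from 1.62 ± 0.086 to 6.62 ± 0.658. The part of the listing limit in these pileups was not tested.

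**Figure D5:**
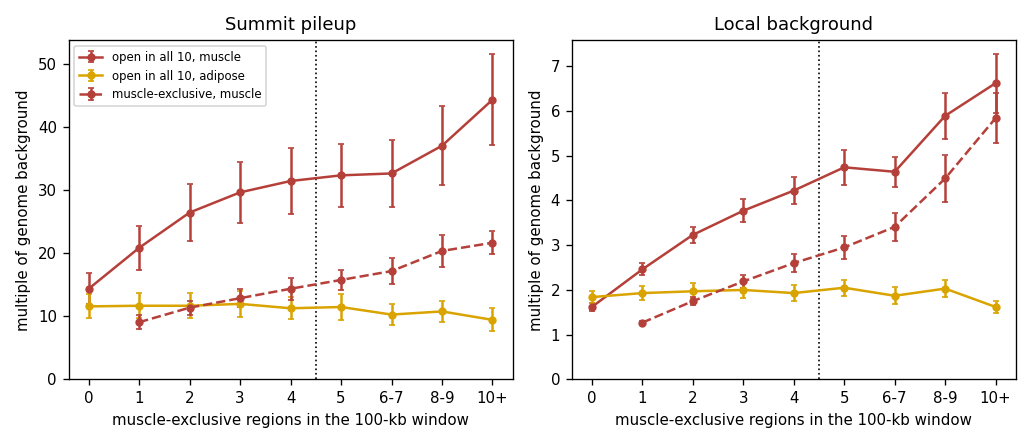
Median summit pileup (left) and local background (right), as multiples of the genome background, against the number of muscle-exclusive regions in the 100-kb window; points are means and bars SD over 5 libraries, and the dotted line marks the limit of 5. For regions open in all 10 libraries the muscle pileup goes from 14.4 to 44.4 while adipose stays between 9.46 and 12, and muscle-exclusive regions (dashed) go from 9.09 to 21.7.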

How the data were processed

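Peaks had been called per library, not on pooled libraries; FastQC, Trimmomatic, Bowtie2, Picard, MACS2 and the build rn6 are named, without versions or settings, per the submitters' processing notes. Each deposited row holds a score, which was not used, the summit's fold enrichment (a ratio) over background, and −log10 of a p-value and of a q-value, as the authors' caller wrote them. Adipose lists end at a −log10 p of 3.26 to 4.27 and muscle lists at 2.0. Rows with the same interval were counted as 1 peak, with the values of the summit of highest fold and the highest −log10 q. Percentiles are within a library's list on chromosomes 1 to 20. The solution for pileup and local background assumed fold = (pileup + 1)/(background + 1) and a Poisson upper tail for p, and was chosen after seeing the data. Transposase shift, duplicates and mitochondrial reads are not given in the sources used here.

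Members, lists and tests were chosen with earlier results of these data known. Tests were exact permutations: of sign within the 5 muscle libraries, or of 5 against 5 libraries. Named were the 10 windows with most members, the 10 members with the best worst fold percentile, the best such member of each window, and the 5 longest runs; further members were named after their values were seen. Code was tested on simulated data. Genes, motifs and sequences had been planned and need rn6; they are not analysed here. Alternatives changed the peak threshold, overlap, window and libraries; the shares and window-count values with adipose limited to replicates 1 and 5 were added after seeing the data. Python 3.11.15, NumPy 2.4.6, SciPy 1.17.1 and pandas 2.3.3 were used.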

Additional observations from a re-analysis of the deposited data

Results flagged for a closer look

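Among 104 sets of 5 libraries, 11 held a value whose gap to its nearest neighbour exceeded 0.71 of the range; chance alone sets off about 1 in 20. Muscle replicate 5 gave 8 of the 11, all of them high. Its median fold enrichment was 5.36 at clustered and 6.08 at dispersed regions, and its median pileup at regions open in all libraries inside clustered windows was 42.4 times the genome background. Its fold enrichment was also high at the regions on chromosome 18 from 6847472 (22.9) and from 29273513 (18.5), on chromosome 1 from 214908882 (25.8) and from 277196860 (14.4), and on chromosome 3 from 63637257 (5.59). Adipose replicate 1 gave the other 3, all low. Strong peaks made up 70.5% of its regions open in all libraries inside clustered windows and 73.7% elsewhere, and it listed 0 peaks on chromosome 10 from 45400001 to 45500000.

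At regions open in all libraries, the difference between clustered windows and elsewhere was not the same in the tissues (muscle minus adipose, exact permutation p = 0.00794 each). The differences were 0.85 in log2 summit pileup, 1.03 in log2 local background and -2.59 points in fold percentile. The windows were chosen from the same lists, so none of these differences, that in pileup included, is independent of the choice. The local background, and with it the fold, can also take in reads of members nearby, a part that was not tested. All of these differences are descriptions.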

How the results depend on the processing

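Counts of clustered regions depend on the definition: 1676 in 298 windows of 50 kb, 9441 in 1344 windows of 200 kb, 7579 in 1463 windows with at least 4, 3049 in 424 windows with at least 6, and 11215 in 1715 windows with adipose limited to replicates 1 and 5, against 4919 in 798. It was 6456 in 1015 windows with a −log10 q of at least 5, where 2764 (56.2%) of the 4919 remained, and 4672 in 764 at the common −log10 p floor, where 3604 (73.3%) remained. Leaving out a library asks less of a region by construction and gave 5514 to 6281 regions in 888 to 1002 windows. The differences between clustered and dispersed regions in pileup (log2 0.54 to 0.83), local background (0.85 to 1.27), width and strong share kept their direction in all 19 alternatives. The fold rank turned with the statistic: clustered minus dispersed was 3.02 and, for regions open in all libraries, muscle minus adipose was 5.36 when ranked by −log10 q; the latter was -0.34 with adipose replicates 1 and 5. The cause was not tested. Same-numbered libraries did not deviate together (correlations of -0.124 to 0.06 over 5 pairs, and 1 of 5 adipose libraries correlated best with its own number). With the replicate block the 4 differences of muscle minus adipose, 3366 other peaks per 100000, 0.85 in log2 pileup, 1.03 in log2 local background and -2.59 points of fold percentile, had an exact sign-flip permutation p of 0.0625, the smallest that 5 pairs allow. The lowest listed pileup was 10 to 16 reads in adipose and 8 to 11 in muscle, which differ in depth and in the −log10 p at which the lists end.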
